A study of Oryza sativa with 6 samples.

Results

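The protein-folding machinery of the endoplasmic reticulum (ER) was followed in developing rice grains of a line with lowered RBP-L, an RNA-binding protein. The genes described were picked by locus identifier and are 10 of the 55986 loci in the deposited expression table: BiP1, BiP4 and BiP5 (ER Hsp70 chaperones), PDIL1-1, PDIL1-4, PDIL2-1 and PDIL2-3 (protein disulfide isomerase-like proteins), calnexin, ERO1 and the transcription factor bZIP50. The pairing of these names with identifiers comes from the definition of the gene set, since neither the deposited table nor the reference table of 39387 RefSeq genes holds it. The comparison was between 2 groups of 3 biological repeats, rbpl-1 to rbpl-3 from an RBP-L knockdown line and WT-1 to WT-3 from the wild-type cultivar ZH11, both taken as dehulled seeds at 10 to 14 days after flowering from chambers run at 27 °C with 12 h of light. Values of single libraries are given in the order of their replicate numbers. How the knockdown was made is not given in the sources used here, and there was 1 knockdown line, so that RBP-L loss and any other difference between that line and ZH11 cannot be told apart.

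Storage proteins of the rice grain are made on the rough ER of the endosperm and fold there before they are packed into protein bodies. BiP binds nascent and unfolded chains in the ER lumen, calnexin is a membrane lectin that holds glycoproteins while they fold, and the PDIL proteins make and rearrange disulfide bonds, passing electrons to ERO1, the ER thiol oxidase. When unfolded proteins build up, the ER sensor IRE1 splices bZIP50 mRNA in the cytoplasm, and the protein made from the spliced form enters the nucleus and drives chaperone genes such as the BiPs. PDIL1-1 is the gene lost in the rice esp2 mutant, whose endosperm accumulates unprocessed glutelin precursor.

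RBP-L itself (LOC_Os04g53440, chromosome 4) had 15.1, 14.4 and 15.3 RPKM (reads scaled to gene length and library depth) in the rbpl libraries, against 62.8, 56.8 and 51.2 RPKM in the WT libraries. The rbpl mean was 26.2% of the WT mean, with a log2 fold change of −1.86 ± 0.11 (SE) and an adjusted p of 0.000159 by limma. Library totals recovered from the RPKM steps lay between 44187374 and 50714582 reads. Over the 17507 tested loci, those with a mean of at least 1 RPKM in at least 1 group, WT-1 stood apart from its group, with r = 0.965 to WT-2 and 0.966 to WT-3, while WT-2 with WT-3 gave 0.995 and pairs of rbpl libraries gave 0.993 to 0.994. Values without WT-1 are therefore given where a call changes. All 11 endosperm markers checked were expressed, at 73.0 RPKM or more in every library. Their summed level ran from 20658 to 24412 RPKM in rbpl and from 21964 to 32113 RPKM in WT (21964 and 25571 RPKM in WT-2 and WT-3). By limma 1 of the 11 rose and 0 fell, with 4 lower at an unadjusted p below 0.05 and 0 lower by limma-voom. Without WT-1, 1 rose and 2 fell. The 2 that fell were entries set down as the glutelin genes GluA1 (log2 fold change −0.62, adjusted p 0.0148 by limma) and GluA2 (−0.59, adjusted p 0.0124 by limma). The 1 that rose in both fits was also set down as a glutelin gene, GluD1 (0.74, adjusted p 0.0256, and without WT-1 0.87, adjusted p 0.000167, by limma). The glutelin entries GluA3 (−0.47 with WT-1 kept) and GluB4 (0.18) passed the threshold in neither fit. These glutelin entries were named after their values were seen. Embryo and aleurone markers summed to between 4656 and 6060 RPKM in rbpl and between 4727 and 5209 RPKM in WT, and 0 of 3 passed limma's threshold (1 at an unadjusted p below 0.05, 0 by limma-voom, and 1 that rose without WT-1). The 4 markers of green tissue summed to between 4306 and 5045 RPKM in rbpl and between 1849 and 4012 RPKM in WT, and 2 of 4 rose (3 of 4 without WT-1). Over all tested loci, 3.46% rose and 3.10% fell by limma (8.51% and 9.51% without WT-1). An unadjusted p below 0.05 by limma was found at 21.6% of all tested loci, with 2129 of the 17507 lower. These marker identifiers were set down from general knowledge of rice loci and are not paired with names in the files.

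Of the 10 genes, BiP1 and PDIL2-3 rose in the knockdown and 0 fell by limma on log2(RPKM + 1) at an adjusted p below 0.05 (0 also at an unadjusted p below 0.05 and by limma-voom). BiP1 was about 2.11-fold and PDIL2-3 about 1.69-fold higher in rbpl, PDIL1-1 was 1.29-fold higher without passing the threshold, and PDIL1-4, PDIL2-1, calnexin, ERO1 and bZIP50 stood between 0.865 and 1.14 times the WT mean. The filter on low values was passed by 8 of the 10, all but BiP4 and BiP5. The 2 that rose are 2 of 8 tested, beside 3.46% of all tested loci that rose, 3.10% that fell and 6.56% that changed in either direction. At an unadjusted p below 0.05 they were 3 of 8, beside 21.6% of all tested loci. The median log2 fold change was 0.16 over the 8 and −0.04 over all tested loci. In 3 of the 8, BiP1, PDIL1-1 and PDIL2-3, every rbpl library was above every WT library, which was so at 12.2% of tested loci. The opposite, so at 17.9% of tested loci, was found for 0 of the 8, and the groups overlapped at the other 5. The summed level of the green-tissue markers was also higher in rbpl, with no overlap between the groups. Most of this sum came from 2 entries set down as LHCB, light-harvesting proteins (2697 and 1861 RPKM in rbpl, 2026 and 1061 RPKM in WT). Neither passed the threshold (adjusted p 0.378 and 0.0966 by limma). The 2 that rose were set down as rbcS, the Rubisco small subunit (41.9 and 130 RPKM in rbpl, 29.6 and 78.1 RPKM in WT). Within WT, WT-1 had the lowest sum of the 4 green-tissue markers (1849 RPKM, against 4012 and 3723 RPKM in WT-2 and WT-3). WT-1 also had the most BiP1, PDIL1-1 and PDIL2-3 of the WT libraries. Of the rbcS entries, LOC_Os12g19470 was highest in WT-1 (32.4 RPKM, against 26.7 and 29.8 RPKM) and the other was lowest there. The part of the green-tissue markers in the result was not tested. In bulk seed, a change in the share of endosperm cells and a change in RNA per cell cannot be told apart.

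**Figure D1:**
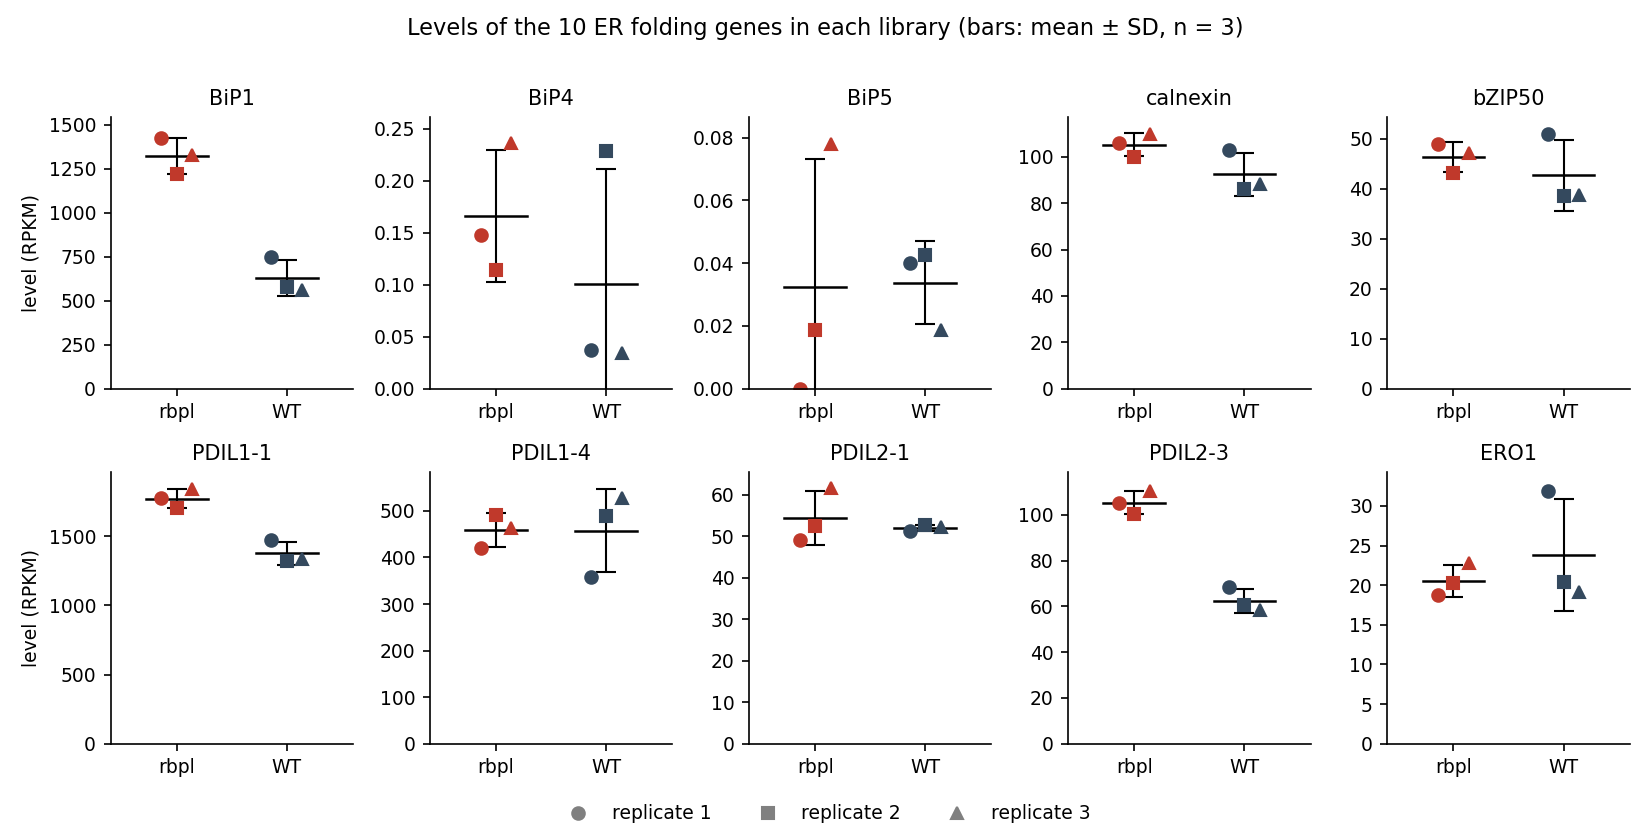
Level in RPKM (vertical axes, each from 0) of each of the 10 genes in the 3 rbpl and 3 WT libraries; symbols mark the replicate number, horizontal lines the mean and bars the SD (n = 3). The rbpl points lie above all WT points for BiP1, PDIL1-1 and PDIL2-3. WT-1 is the WT library nearest to rbpl for BiP1, PDIL1-1, PDIL2-3 and calnexin, and lies above all rbpl points for bZIP50 and ERO1.

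BiP1 (LOC_Os02g02410, chromosome 2) is the main BiP of the rice endosperm. Its level was 1422, 1219 and 1325 RPKM in the rbpl libraries, against 746, 576 and 561 RPKM in the WT libraries. All 3 rbpl libraries were high and none overlapped the WT, the lowest rbpl value being 1.63 times the highest WT value. The means were 1322 ± 102 RPKM in rbpl and 627 ± 103 RPKM in WT (SD, n = 3 each), from 151387 to 167738 reads per rbpl library and 62971 to 86989 per WT library. The log2 fold change was 1.08 ± 0.14 (SE; 95% interval 0.75 to 1.42) with an adjusted p of 0.00505 by limma. BiP1 was the 49th most abundant of the tested loci by mean RPKM in rbpl and the 121st in WT. WT-1 was the WT library with the most BiP1, 1.31 times the mean of WT-2 and WT-3, and without it the log2 fold change was 1.21 (adjusted p 4.95e-06 by limma).

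BiP4 and BiP5, BiP genes known in rice to be nearly silent until the ER is stressed, were close to the limit of detection in both groups. BiP4 (LOC_Os05g35400, chromosome 5) had 16, 13 and 26 reads in the rbpl libraries, against 4, 23 and 4 reads in the WT libraries, which is 0.148, 0.114 and 0.236 RPKM against 0.0374, 0.229 and 0.0347 RPKM. WT-2 stood with the rbpl libraries and the groups overlapped. BiP5 (LOC_Os08g09770, chromosome 8) had 0, 2 and 8 reads in rbpl and 4, 4 and 2 reads in WT, so that most libraries held only a few reads and the groups overlapped. Summed over its 3 libraries, BiP4 had 55 reads in rbpl (95% Poisson interval 41.4 to 71.6) and 31 in WT (21.1 to 44.0), and BiP5 had 10 reads in each group (4.80 to 18.4), intervals that cover counting error only. With no filter on low values, the log2 fold change was 0.09 for BiP4 (adjusted p 0.641) and −0.0028 for BiP5 (adjusted p 0.977) by limma, on a scale that compresses values this low. BiP1 made up 99.95% or more of the summed RPKM of the 3 BiP genes in each of the 6 libraries. How reads shared between BiP copies were assigned is not given in the sources used here, so the few BiP4 and BiP5 reads are uncertain in origin.

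PDIL2-3 (LOC_Os09g27830, chromosome 9) encodes an isomerase-like protein that is found on the surface of the prolamin protein bodies in rice endosperm. It had 105, 100.4 and 110.4 RPKM in the rbpl libraries, against 68.5, 60.5 and 58.4 RPKM in the WT libraries. Every rbpl library was above every WT library, the lowest being 1.47 times the highest WT value. The means were 105 ± 5.0 RPKM in rbpl and 62.5 ± 5.31 RPKM in WT (SD, n = 3 each). Its log2 fold change was 0.75 ± 0.11 (SE; 95% interval 0.50 to 0.99) with an adjusted p of 0.00654 by limma. PDIL2-3 was the 950th most abundant tested locus in rbpl and the 1489th in WT.

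PDIL1-1 (LOC_Os11g09280, chromosome 11), the esp2 gene and an isomerase of the ER lumen, was the most abundant of the 10 in both groups. It had 1774, 1702 and 1843 RPKM in the rbpl libraries, against 1471, 1324 and 1334 RPKM in the WT libraries. The groups did not overlap, but the gap was small, with the lowest rbpl library 1.16 times the highest WT library. The means were 1773 ± 70.5 RPKM in rbpl and 1376 ± 81.9 RPKM in WT (SD, n = 3 each). The log2 fold change was 0.37 ± 0.11 (SE; 95% interval 0.11 to 0.62) with an adjusted p of 0.0972 by limma, which missed the threshold. It passed under median-of-ratios scaling (log2 fold change 0.44, adjusted p 0.0484 by limma) and without WT-1 (0.41, adjusted p 0.00571 by limma). The gene was the 260th of 811 tested loci on chromosome 11 by locus number. Of its 20 nearest tested loci 2 rose and none fell by limma, beside 3.46% and 3.10% of all tested loci. The median of the 20 was −0.05 on the log2 scale.

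The other 2 isomerase genes did not pass the test. PDIL1-4 (LOC_Os02g01010, chromosome 2), a PDIL protein of the same subgroup as PDIL1-1, had 421, 492 and 464 RPKM in the rbpl libraries, against 358, 489 and 527 RPKM in the WT libraries. The WT libraries were spread on both sides of the rbpl libraries, with WT-1 lowest of all 6. The means were 459 ± 36.1 RPKM in rbpl and 458 ± 88.3 RPKM in WT (SD, n = 3 each), and the log2 fold change of 0.02 had a 95% interval from −0.35 to 0.39 (adjusted p 0.960 by limma). PDIL2-1 (LOC_Os05g06430, chromosome 5), a member of the same subgroup as PDIL2-3, had 49.0, 52.6 and 61.7 RPKM in the rbpl libraries, against 51.4, 52.8 and 52.1 RPKM in the WT libraries. The 3 WT libraries were nearly level and the rbpl libraries lay around them, with a log2 fold change of 0.06 (95% interval −0.20 to 0.31, adjusted p 0.818 by limma).

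Calnexin, ERO1 and bZIP50 had overlapping groups, and in all 3 WT-1 was the highest WT library. Calnexin (LOC_Os04g32950, chromosome 4) had 106, 99.9 and 109.7 RPKM in the rbpl libraries, against 103, 86.1 and 88.3 RPKM in the WT libraries. WT-1 stood among the rbpl libraries, and the other WT libraries were below them. The log2 fold change was 0.19 (95% interval −0.07 to 0.44, adjusted p 0.369 by limma), and without WT-1 it was 0.27 with an adjusted p of 0.0476 by limma, past the threshold.

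ERO1 (LOC_Os03g52340, chromosome 3) had 18.8, 20.2 and 22.8 RPKM in the rbpl libraries, against 31.9, 20.4 and 19.2 RPKM in the WT libraries. WT-1 alone was high, 1.61 times the mean of WT-2 and WT-3, while WT-2 and WT-3 lay within the rbpl range. The log2 fold change was −0.17 (95% interval −0.61 to 0.27, adjusted p 0.657 by limma), and without WT-1 it was 0.05 (adjusted p 0.768).

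bZIP50 (LOC_Os06g41770, chromosome 6) had 48.9, 43.1 and 47.2 RPKM in the rbpl libraries, against 51.0, 38.5 and 38.7 RPKM in the WT libraries. WT-1 was the highest of the 6 libraries and WT-2 and WT-3 the lowest. Its log2 fold change was 0.13 (95% interval −0.18 to 0.44, adjusted p 0.633 by limma), and without WT-1 it was 0.26 (adjusted p 0.0648). A level per gene does not separate spliced from unspliced bZIP50 mRNA, so the form that marks IRE1 activity was not measured here.

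**Figure D2:**
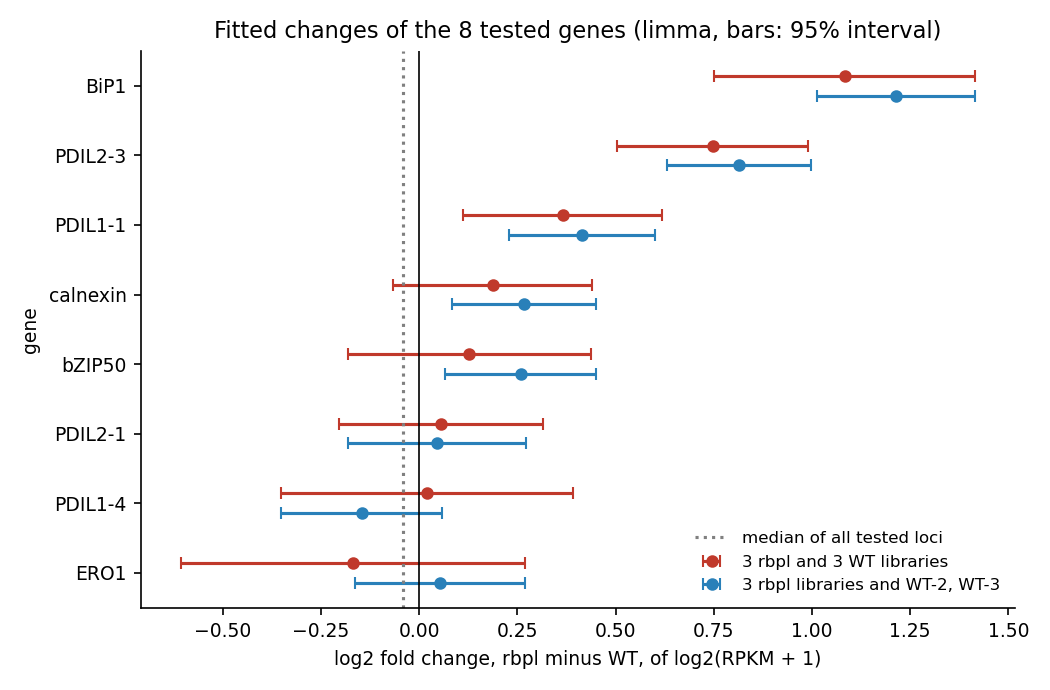
Fitted log2 fold change (horizontal axis, rbpl minus WT, of log2(RPKM + 1)) of the 8 tested genes with its 95% interval by limma, from all 6 libraries in red and without WT-1 in blue; the dotted line is the median of all tested loci, −0.04. The intervals of BiP1, PDIL2-3 and PDIL1-1 lie above 0 in both fits, while those of calnexin and bZIP50 lie above 0 only in the fit without WT-1.

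Leaving out WT-1 raised the genes that rose to 4 of 8, BiP1, PDIL2-3, PDIL1-1 and calnexin, and 0 fell. It also raised the background, since 8.51% of the 17372 loci then tested rose and 9.51% fell. Leaving out any other library left 2 of 8, BiP1 and PDIL2-3, although with adjusted p up to 0.0416 for BiP1 and 0.0482 for PDIL2-3 by limma. Over all loci tested in those fits, from 182 (of 17525, without rbpl-1) to 373 (of 17578, without WT-2) rose. From 174 (without rbpl-1) to 363 (without WT-2) fell.

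By level per kilobase, the order of the genes was PDIL1-1, BiP1, PDIL1-4, then calnexin and PDIL2-3, then PDIL2-1, bZIP50, ERO1, BiP4 and BiP5. In rbpl, PDIL2-3 (100.4 to 110.4 RPKM) and calnexin (99.9 to 109.7 RPKM) were neighbours that overlapped, while in WT calnexin (86.1 to 103 RPKM) was above PDIL2-3 (58.4 to 68.5 RPKM) in every library. In WT, BiP4 and BiP5 overlapped, and the other neighbours in either group did not. The 10 genes summed to 3944, 3729 and 3984 RPKM in the rbpl libraries, against 2881, 2647 and 2678 RPKM in the WT libraries. This was 0.628 ± 0.0256% of the summed RPKM of all loci in rbpl and 0.450 ± 0.0218% in WT (SD, n = 3 each), a description of the set with no test. BiP1 held 36.1, 32.7 and 33.3% of the sum in the rbpl libraries, against 25.9, 21.7 and 20.9% in the WT libraries. PDIL1-1 held 45.0, 45.6 and 46.3% in rbpl, against 51.0, 50.0 and 49.8% in WT. BiP1 thus took a larger share of the sum in every rbpl library, and PDIL1-1 a smaller one although its own level was higher.

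**Figure D3:**
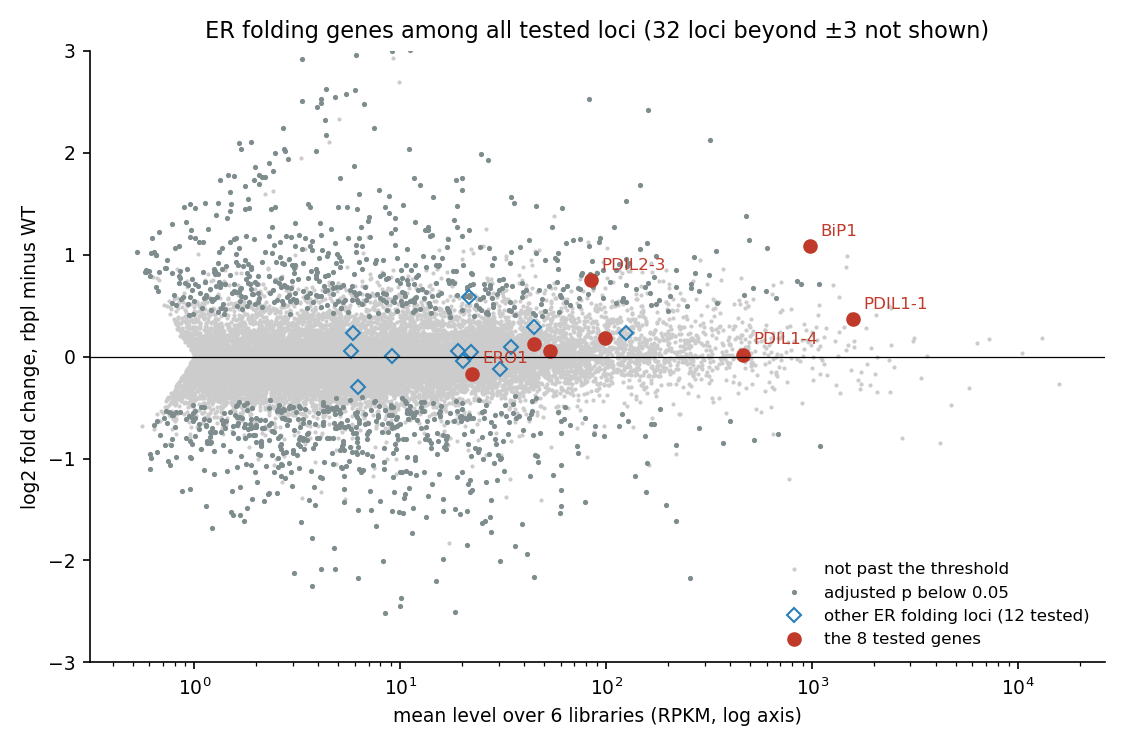
Log2 fold change (vertical axis, rbpl minus WT) against the mean level over the 6 libraries (horizontal log axis, RPKM) for all 17507 tested loci, of which 32 beyond ±3 are not shown; red points are the 8 tested genes and blue diamonds the 12 tested loci of the wider ER folding list. BiP1 and PDIL1-1 lie at the abundant end of the plot and the 12 blue loci lie between −0.30 and 0.59.

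Ratios between genes, 6 in all, were taken within each library to compare their changes directly, which also cancels any factor common to all loci of a library. The ratio of BiP1 to PDIL1-1 was 0.802, 0.716 and 0.719 in the rbpl libraries, against 0.507, 0.435 and 0.420 in the WT libraries. The ratio of BiP1 to calnexin was 12.6 ± 0.745 in rbpl and 6.76 ± 0.450 in WT (SD, n = 3 each). BiP1 stood at 29.1, 28.3 and 28.1 times bZIP50 in the rbpl libraries, against 14.6, 15.0 and 14.5 times in the WT libraries. This last ratio was nearly the same in WT-1 as in the other WT libraries, since WT-1 had 1.31 times the BiP1 and 1.32 times the bZIP50 of their mean. Calnexin was also higher in WT-1 (1.18 times that mean), while PDIL1-4 was lower (0.706 times). Within the second PDIL subgroup, PDIL2-3 was 2.15, 1.91 and 1.79 times PDIL2-1 in the rbpl libraries, against 1.33, 1.14 and 1.12 times in the WT libraries. Within the first, PDIL1-1 was 4.22, 3.46 and 3.97 times PDIL1-4 in rbpl, against 4.10, 2.71 and 2.53 times in WT, and the groups overlapped through WT-1. PDIL1-1 was 94.5, 84.2 and 81.0 times ERO1 in rbpl, against 46.1, 65.0 and 69.6 times in WT. In 5 of the 6 ratios the groups did not overlap, each with an exact permutation p of 0.1, two-sided, the smallest that 3 against 3 libraries allow (0.12 after Benjamini-Hochberg adjustment over the 6), and for PDIL1-1 over PDIL1-4 the exact p was 0.3. None can pass a threshold of 0.05 in this design. The pairs were not part of the plan of tests. In all 6 the upper gene was BiP1, PDIL1-1 or PDIL2-3, whose own levels were already higher in every rbpl library. The ratios therefore restate those levels and are no further support. The share of all gene pairs without overlap was not computed.

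**Figure D4:**
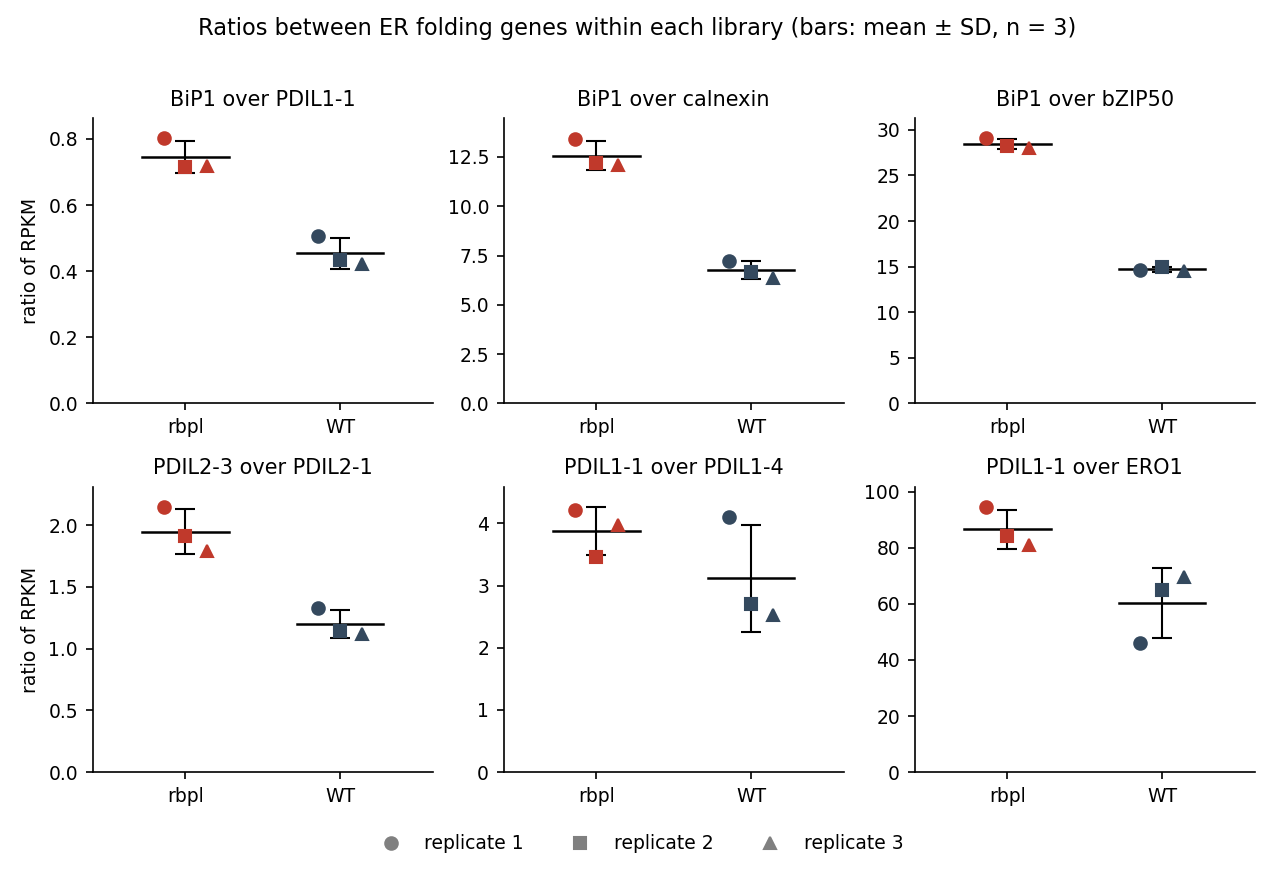
Ratio of the RPKM of a pair of genes within each library (vertical axes from 0) in the 3 rbpl and 3 WT libraries; symbols mark the replicate number, horizontal lines the mean and bars the SD (n = 3). BiP1 over bZIP50 sits between 28.1 and 29.1 in rbpl and between 14.5 and 15.0 in WT, and PDIL1-1 over PDIL1-4 is the one ratio whose groups overlap.

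A wider list of 16 loci of the same machinery was also read from the fit across all loci. It held loci set down as a further pair of BiP genes, an ER Hsp90 (GRP94), calreticulins, 7 more PDIL genes, the sensor IRE1 and the transcription factors bZIP39 and bZIP60, again with no pairing in the files. The filter was passed by 12 of them. The 2 BiP entries failed it, each above 0 in only 1 library, at 0.0198 RPKM (rbpl-2) and 0.0196 RPKM (WT-3). By limma 1 of the 12 rose and 0 fell (1 lower at an unadjusted p below 0.05, 0 lower by limma-voom), beside 3.46% and 3.10% of all tested loci, and the median log2 fold change was 0.06, against −0.04 over all tested loci. The locus that rose, LOC_Os03g61670 on chromosome 3, entered as a calreticulin (a soluble lectin chaperone of the ER lumen), had 25.7, 24.6 and 28.3 RPKM in the rbpl libraries, against 16.9, 17.4 and 16.9 RPKM in the WT libraries. Its groups were well apart, and its log2 fold change was 0.59 ± 0.10 (SE) with an adjusted p of 0.0124 by limma. Without any 1 of the rbpl libraries its adjusted p by limma lay between 0.0573 and 0.0664 and missed the threshold, so the list then held 0 that changed (1 or 2 had an unadjusted p below 0.05). Over all loci tested in those fits, from 356 (of 17525, without rbpl-1) to 453 (of 17546, without rbpl-3) changed.

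Without WT-1, 3 of the 12 rose and 0 fell (0 lower at an unadjusted p below 0.05), beside 8.51% and 9.51% of all loci tested in that fit. Besides LOC_Os03g61670 these were the GRP94 entry, LOC_Os06g50300 (log2 fold change 0.39, adjusted p 0.00625 by limma), and a second calreticulin entry, LOC_Os07g14270 (0.33, adjusted p 0.0153 by limma), both named after their values were seen. The GRP94 entry had 48.9, 48.9 and 48.5 RPKM in the rbpl libraries, against 45.9, 36.7 and 37.4 RPKM in the WT libraries, with WT-1 nearest to rbpl as for calnexin. In all 6 libraries its log2 fold change was 0.29 with an adjusted p of 0.194 by limma. The fitted log2 fold changes of the 12 ran from −0.30, at the IRE1 entry, to 0.59.

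The loci around the 2 genes that rose were also read in order of locus number. Near BiP1, 2 of the 20 closest tested loci rose and none fell by limma, and the median of the 20 was 0.03 on the log2 scale. Near PDIL2-3, 1 of the 20 rose and 3 fell, and their median was −0.14. Beside these stand 3.46% of all tested loci that rose and 3.10% that fell. Near ERO1, which did not pass the threshold, 2 of the 20 also rose.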

How the data were processed

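RNA was sequenced from 3 rbpl and 3 WT seed samples after NEBNext Ultra library preparation, per the labels' protocols. The authors deposited RPKM per locus and library, per the file headers; aligner, counter, build and annotation: not given in the sources used here. RPKM divides by a library's total, so a few abundant loci can shift all others. For the main test, limma 3.58.1 in R 4.3.3 was fitted with a trended, robust variance and no covariates to log2(RPKM + 1), which understates changes of low loci. It took all 17507 loci with a group mean of 1 RPKM or more, and two-sided p-values were adjusted over all of them by Benjamini-Hochberg (threshold 0.05). Ratios were tested by exact permutation. Whole reads were recovered from the RPKM steps for all 32287 loci above 0, within 0.0002 reads and up to a common divisor, and served for depth, read numbers and limma-voom. Python 3.11.15, pandas 2.3.3 and scipy 1.17.1 did the rest, and scripts were tested on simulated data. Alternatives were a pseudocount of 0.1, no filter or one at 5 RPKM, 2 scalings, a replicate block, limma-voom and leaving out each library. The genes planned to be named were RBP-L, all 10 members and loci of the wider list past the threshold. Glutelin entries of the endosperm markers and the LHCB and rbcS entries of the green-tissue markers were named besides, after their values were seen. So was the IRE1 entry, the lowest of the wider list. Members and lists were chosen with earlier results of these data known. No sequence is shown, since no table used here pairs these identifiers with one.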

Additional observations from a re-analysis of the deposited data

How the results depend on the processing

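Across the 13 alternatives BiP1 and PDIL2-3 kept their rise past the threshold, with log2 fold changes from 1.01 to 1.21 (adjusted p 4.95e-06 to 0.0416 by limma) and from 0.70 to 0.82 (5.23e-05 to 0.0482), and RBP-L its fall (−1.93 to −1.79). bZIP50 stayed positive and short of it in all 13. Leaving out 1 library gave 2 to 4 of the 10 genes changed, 0 to 3 of the wider list and 356 to 3130 loci in all, with 3130 and 4 genes without WT-1; a filter at 5 RPKM, which tests 10744 loci, gave 660. The sign of an uncalled change turned in 3 genes when 1 library was left out: PDIL1-4 ran from −0.15 (without WT-1) to 0.13, PDIL2-1 from −0.037 (without rbpl-3) to 0.13 and ERO1 from −0.30 to 0.052 (without WT-1). The cause was not tested. The labels give no pairing of the libraries by replicate number. For numbers 1, 2 and 3 the residuals of rbpl and WT correlated at 0.0476, 0.259 and −0.380, and own-number correlation was the best for 2 of 6. With 3 libraries per group, these values cannot decide whether the numbers pair the libraries. As an alternative, with the replicate block 963 loci changed, 2 of the 10 genes and 1 of the wider list, with adjusted p for BiP1 and PDIL2-3 past the threshold. The quasi-likelihood test of edgeR, planned only for a file of counts, was not run, and limma-voom was the test on recovered reads. BiP4 and BiP5 had at most 26 reads per library, and their level is limited both by these few reads and by the spread between libraries (4, 23 and 4 BiP4 reads in WT).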
